A study of Mus musculus with 4 samples.

Results

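The 10 genes described here are known from the absorptive cells (enterocytes) of the small intestine, as measured in colonic mucosa: the brush border enzymes Anpep, Sis and Lct, the lipoprotein genes Apoa1, Apoa4, Apob and Mttp, and the fatty acid and bile acid handling genes Fabp2, Fabp6 and Slc10a2. They were chosen by name, as all gene probes whose accession led to 1 of these 10 symbols, which gave 16 of the 41174 gene probes on the array. Each of 4 two-colour arrays (k, e, b and a in the labels) carried RNA of a C57BL/6 mouse at postnatal day 90 (P90) beside RNA of a C57BL/6 mouse at postnatal day 30 (P30), both from colonic mucosa scraped off and frozen. The labels name no transgene, treatment or sex, so the only difference stated between the groups is age. The dye Cy5 marked the P90 RNA on array e and the P30 RNA on the other three, and Cy3 marked their partners. Values of the 4 arrays are given in the order a, b, e, k. The labels call the 4 comparisons independent but do not say whether any animal was used more than once, so the p-values measure only the spread between these 4 pairs, which may be partly technical.

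Enterocytes of the small intestine carry enzymes on their apical brush border that finish the digestion of sugars and peptides, and they repackage absorbed fat into lipoprotein particles for export. The end of the small intestine, the ileum, takes back bile acids through a sodium-coupled transporter and binds them inside the cell. Colonocytes, the absorptive cells of the colon, mainly take up water, salt and short-chain fatty acids, and many of the 10 genes are known as low or silent there in the adult.

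The colon's own marker genes were bright, as the label of the tissue has it. All 7 colonocyte markers measured (among them Car1, a carbonic anhydrase, Aqp8, a water channel, and Guca2a, a gut peptide hormone) were well above background in all 8 RNAs, and Guca2a was saturated in every one, so it gives no ratio. The portion of spots marked as well above background ran from 55.6% to 69.3% in the P90 RNAs and from 64.6% to 71.0% in the P30 RNAs. The 153 negative control spots had a median brightness of 58 to 59.5 in Cy3 and 73 to 74 in Cy5, and their 95th percentile was at most 64 and 78. On arrays a and k the P30 channel was the brighter one before dye correction. The median spot signal was 142.5 against 72 for P90 on a, and 118 against 78 on k. Raw brightness on these arrays therefore cannot be read as a ratio. The ratios of array b ran against those of a, e and k (r = -0.303, -0.269 and -0.172 across all probes, which are not independent replicates), whereas those 3 arrays correlated with each other at 0.303 to 0.582, and the labelled direction of b was kept.

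None of the 10 genes passed the test of a difference between P90 and P30 over the 4 arrays. Of the 15 probes kept after the filter on dim probes, 0 passed limma's moderated test at an adjusted p under 0.05, beside 0 of all 27055 probes kept (percent called: 0%). At an unadjusted p under 0.05 there were 0 of the 15, beside 8.05% of all probes kept (2177 of 27055; 778 higher and 1399 lower at P90). The smallest adjusted p among the 15 was 0.624 in limma (unadjusted 0.0816, a probe of Fabp2), and the number of arrays limits the precision. Of the 10 genes, 9 had a mean log2 ratio of P90 over P30 below 0 (beside 54.4% of all 20825 genes and transcripts), with a median of -0.56 over the 10 beside -0.020 over all. Without array k those medians were -0.035 and -0.024. By the labelled directions, 0 of the 10 genes lay below 0 on all 4 arrays (7.98% of all genes) and 0 above (6.15%). Fabp2, Fabp6, Slc10a2, Sis, Apoa4 and Anpep, 6 of 10, were below 0 on a, e and k and above 0 on b (19.1% of all genes), and so would be below 0 on all 4 with array b turned, where the median over the 10 genes was -0.71. For every probe of the 10 genes the range of normalized signal in the P90 RNAs overlapped that in the P30 RNAs. The share of all probes with such an overlap was not computed, so the overlap is not a trait of these genes.

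Taken singly the arrays differed, and for most of the 10 genes the pair of RNAs on array k was the lowest. On array k all 10 genes had a ratio below 0, beside 53.7% of genes, and 6 of 10 were at least 2-fold lower at P90, beside 4.44% of genes: Anpep, Apoa1, Fabp6, Fabp2, Apoa4 and Mttp. On array a, 2 of 10 were at least 2-fold lower (Slc10a2 and Sis; 9.38% of genes), and on arrays b and e none was (2.26% and 4.11% of genes). The only one at least 2-fold higher on any array was Apob on array b (2.95% of genes there, and 2.3%, 2.29% and 1.21% on a, e and k), and with array b turned it would be at least 2-fold lower there and none of the 10 higher. Ratios below 0 were held by 6 of 10 on array a, 1 on b and 8 on e, beside 54%, 51.8% and 50.5% of genes. The median over the 10 genes was -1.20 on array k, 0.22 on b, and -0.16 on both a and e. The lowest of the 4 ratios was that of array k for 7 of 10 genes, beside 17.9% of all genes, that of a for 2 (27.6%), that of b for 1 (35.7%) and that of e for none (18.8%). These values of single arrays have no test, and in bulk tissue fewer cells that express a gene and less RNA of it per cell cannot be told apart.

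**Figure D1:**
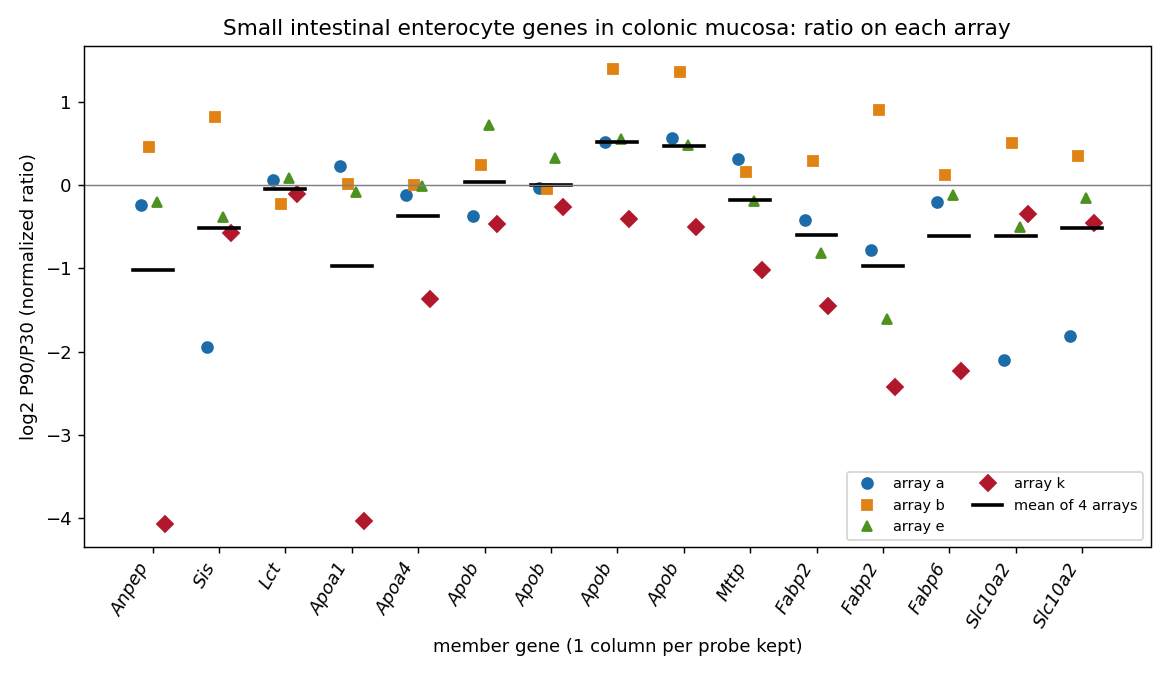
Log2 ratio of P90 over P30 (y axis, normalized) of each kept probe of the 10 genes (x axis, 1 column per probe) on arrays a, b, e and k, with the mean of the 4 arrays as a bar. Array k lies near -4 for Anpep and Apoa1 while the other 3 arrays lie close to 0, and array a is the lowest for Sis and both Slc10a2 probes.

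Among the brush border enzymes, Anpep (aminopeptidase N, which trims amino acids off peptides) showed the lowest single ratio of the 10 genes. Its raw P30 brightness was 778.5, 723, 1298 and 31827 on arrays a, b, e and k, and its P90 brightness was 215, 1102.5, 1016.5 and 1057.5. The P30 RNA of array k thus stood far above the other 7 RNAs. The P90 RNA on the same array was close to those of arrays b and e in raw brightness only. Its normalized P90 signal (log2) was the highest, at 10.63, against 8.66, 9.58 and 10.05 on a, b and e. The normalized log2 ratios of Anpep were -0.24, 0.45, -0.20 and, on array k, -4.07, where Anpep ranked 5th from the lowest of 20824 genes. The mean was -1.01 ± 2.06 (SD, n = 4 arrays; adjusted p = 0.744, limma), and without array k it was 0.0041 ± 0.39.

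Sis (sucrase-isomaltase, which splits sucrose and starch fragments) was dim and had its outlying pair on array a instead. Raw P30 brightness was 706, 134, 173 and 215, and P90 brightness was 63, 256, 136 and 90, the first of which was not well above background. In raw brightness the P30 RNA of array a was the highest of the 8 and its P90 partner the lowest. In normalized signal (log2) that P30 RNA was again the highest (8.80). Its P90 partner (6.85) was level with the P30 RNA of array b (6.84). The log2 ratios of Sis were -1.95, 0.82, -0.38 and -0.58, with a mean of -0.52 ± 1.13 (SD, n = 4; adjusted p = 0.773, limma), and without array a the mean was -0.045. Because the P90 spot of array a was at background, its ratio depends on how background is treated: it was -5.63 with the scanner software's processed signals.

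Lct (lactase, the milk sugar enzyme that declines after weaning) was at the edge of detection at both ages. Its brightness lay between 60 and 87 in all 8 RNAs, near the negative controls of the same dye, and was well above background in 1 P90 and 3 P30 RNAs. Its log2 ratios were 0.066, -0.23, 0.079 and -0.11 (mean -0.047 ± 0.15, SD, n = 4; adjusted p = 0.954, limma), so a change of a signal this close to background was not detectable.

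The lipoprotein genes were near background in most RNAs, and the P30 RNA of array k again was the exception. Apoa1 (apolipoprotein A-I, the main protein of high-density lipoprotein, made in liver and intestine) has 10 spots per array, which were averaged. Raw P30 brightness was 85.4, 87.35, 78.5 and, on array k, 5287.8, and P90 brightness was 68.05, 75.05, 87.75 and 173.45. The other 7 RNAs lay between 68.05 and 173.45, and the brightest of these was the P90 RNA of array k. The ratios came to 0.23, 0.016, -0.079 and -4.04 (log2), and that on k ranked 6th from the lowest. The mean was -0.97 ± 2.05 (SD, n = 4; adjusted p = 0.756, limma), and without array k it was 0.054 ± 0.16. The ratio on array k kept its size under 5 other ways of scaling (-4.04 to -4.62 for Apoa1 and -3.96 to -4.63 for Anpep).

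Apoa4 (apolipoprotein A-IV, a fat-induced protein of chylomicrons) was, like Apoa1, brightest in the P30 RNA of array k, at a lower brightness. P30 brightness was 84, 86.5, 62 and 292, and P90 brightness was 59, 68, 76 and 68, of which only that of array b was well above background. On the log2 scale the ratios were -0.12, 0.0036, -0.013 and -1.37 (mean -0.38 ± 0.67, SD, n = 4; adjusted p = 0.731, limma), and without array k the mean was -0.042 ± 0.065. Since the P90 spot of array k was not well above background, -1.37 understates the difference there.

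Apoa1 and Apoa4 belong to a row of adjacent genes on mouse chromosome 9, in the order Apoa1, Apoc3, Apoa4, Apoa5. Apoc3, which slows the clearance of lipoproteins, had log2 ratios of 0.18, 0.097, 0.095 and -0.76 on a, b, e and k, with a raw P30 brightness of 182 on k and 67.5 to 80.5 on the others. Apoa5, at the end of the row, had 0.17, 0.073, 0.22 and 0.60, so it was not lower on array k. Its spots there were dim (P30 brightness 115 and P90 brightness 109). Another Apoa5 probe, left out by the filter on dim probes, was at 0.076 on k and highest on a (0.22). The 3 neighbours Apoa1, Apoc3 and Apoa4 were lowest on array k, and Apoa5 was highest there by its kept probe only.

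Mttp (the transfer protein that loads fat onto apolipoprotein B) was also brightest in the P30 RNA of array k. P30 brightness was 92, 99, 73 and 207 on a, b, e and k, and P90 brightness was 68, 98, 77 and 69, of which the last pair was not well above background. The log2 ratios were 0.31, 0.16, -0.19 and -1.02 (mean -0.19 ± 0.59, SD, n = 4; adjusted p = 0.875, limma), and without array k the mean was 0.091 ± 0.26.

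Apob (apolipoprotein B, the scaffold of chylomicrons) was the only gene of the 10 with a mean above 0. It had 5 probes, of which 4 were kept. The brightest had a P30 brightness of 238.5, 165, 145 and 391 on a, b, e and k and a P90 brightness of 129.5, 471.5, 205 and 151. Its log2 ratios were 0.56, 1.35, 0.48 and -0.51, higher at P90 on 3 arrays and lower on k, with a mean of 0.47 ± 0.76 (SD, n = 4; adjusted p = 0.696, limma). The probes did not give 1 value: a second probe had a mean of 0.52 ± 0.74, and the other two kept probes had 0.031 ± 0.56 and -0.0055 ± 0.24. All 4 kept probes had their lowest ratio on array k. The fifth probe was well above background in 1 P30 RNA and in no P90 RNA, and gives no fold.

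**Figure D2:**
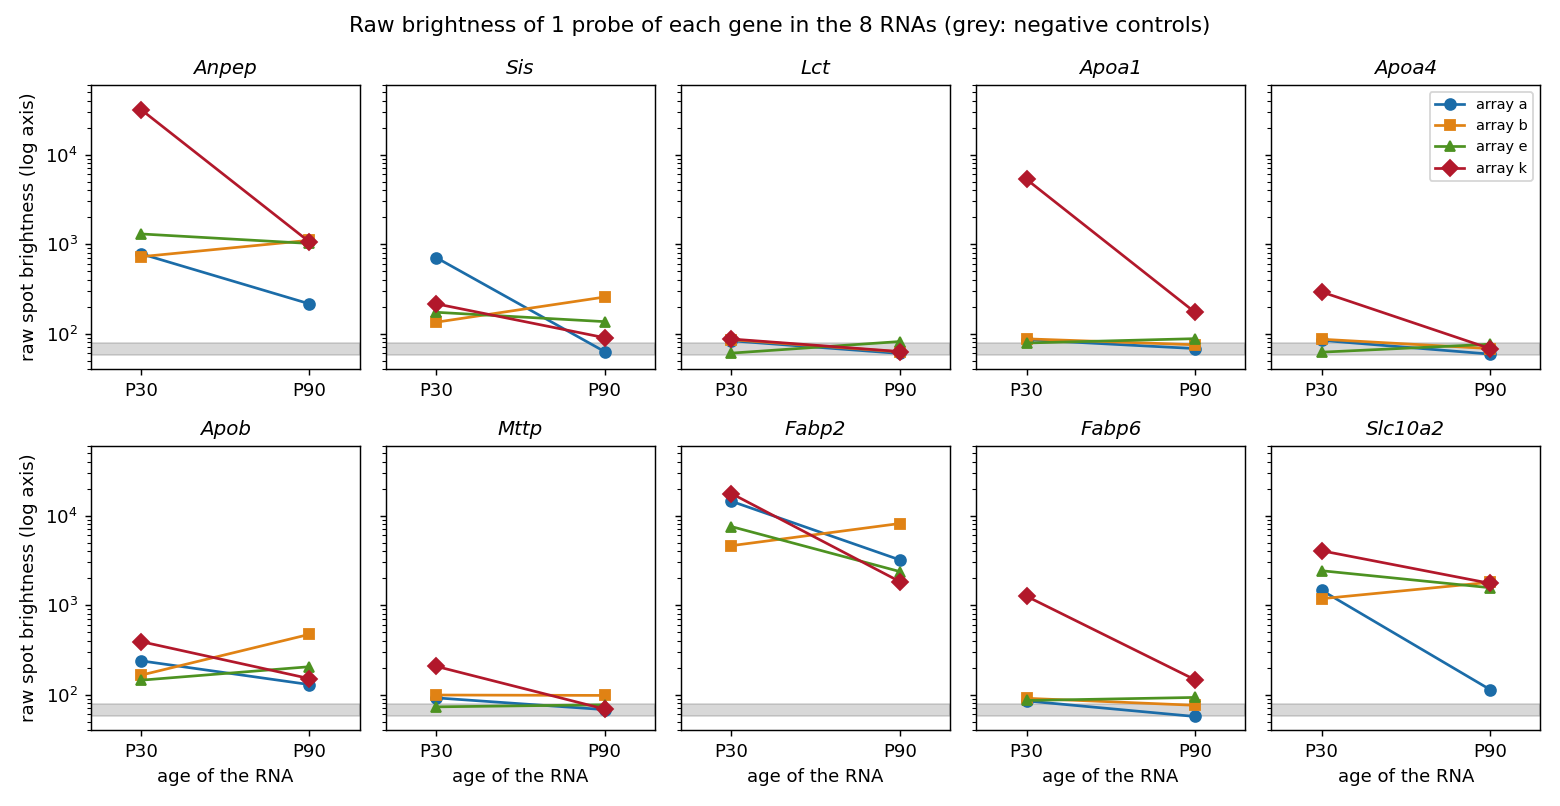
Raw spot brightness (log axis, scanner units, before dye correction) of 1 probe per gene in the P30 and P90 RNA of each array, joined by a line, with the range of the negative controls' medians and 95th percentiles in grey. For Apoa1 and Fabp6 every RNA lies near the controls except those of array k, with P30 values of 5287.8 and 1256.5, and Fabp2 is shown by its probe that was never saturated.

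Among the genes that handle fatty acids and bile acids, Fabp2 (intestinal fatty acid binding protein) was the brightest and was lower at P90 on 3 of 4 arrays. Its probe that was never saturated had a P30 brightness of 14477, 4615, 7544.5 and 17664, and a P90 brightness of 3206, 8162.5, 2374 and 1835. Array b alone had the P90 RNA above its P30 partner. This corresponds to log2 ratios of -0.78, 0.90, -1.61 and -2.42, with a mean of -0.98 ± 1.42 (SD, n = 4; adjusted p = 0.657, limma), and without array k the mean was -0.49 ± 1.28. A second, brighter probe gave -0.42, 0.29, -0.82 and -1.46 (mean -0.60 ± 0.73; adjusted p = 0.624, limma). That probe was saturated in the P30 RNA on arrays a and k, so its ratios there are bounded, and it is the one that stands for Fabp2 in the counts above.

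Fabp6 (the ileal bile acid binding protein) was near background in 6 RNAs and higher in both RNAs of array k. P30 brightness was 85, 91, 86 and 1256.5 on a, b, e and k, and P90 brightness was 57 (not well above background), 76, 93 and 147. The log2 ratios were -0.21, 0.13, -0.12 and -2.24 (mean -0.61 ± 1.09, SD, n = 4; adjusted p = 0.716, limma), and without array k the mean was -0.066 ± 0.17.

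Slc10a2 (the sodium-coupled bile acid transporter of the ileal brush border) was measured well above background in all 8 RNAs and, like Sis, was set apart by array a. P30 brightness was 1463, 1180, 2422.5 and 4047 on a, b, e and k, and P90 brightness was 114, 1799, 1565 and 1752. The P90 RNA of array a was far dimmer than the other 3 P90 RNAs. The log2 ratios were -2.10, 0.51, -0.51 and -0.35, with a mean of -0.61 ± 1.09 (SD, n = 4; adjusted p = 0.712, limma); without array a the mean was -0.12. The second probe gave -1.81, 0.35, -0.16 and -0.46. Its ratio on array k thus differed little from that on array e, although Fabp6, its partner in the ileum, was at -2.24 there.

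The stretch just upstream of the start of Sis and Slc10a2, the pair lowest on array a, is shown beside those of Fabp6 and Apoa1, both near background outside array k, because the members differ in it by base composition. The sequences are the 250 bases before the start in RefSeq's annotation of build GRCm38.p6, 5′ to 3′ on the gene's strand, and capitals mark TTTAT (the core of the binding motif of the intestinal factors Cdx1 and Cdx2) or its other strand, ATAAA. Sis is at chr3:72967864-72968113, Slc10a2 at chr8:5105288-5105537 and Fabp6 at chr11:43601563-43601812, all on the minus strand, and Apoa1 is at chr9:46228380-46228629 on the plus strand, with no match and so no capitals.
Sis: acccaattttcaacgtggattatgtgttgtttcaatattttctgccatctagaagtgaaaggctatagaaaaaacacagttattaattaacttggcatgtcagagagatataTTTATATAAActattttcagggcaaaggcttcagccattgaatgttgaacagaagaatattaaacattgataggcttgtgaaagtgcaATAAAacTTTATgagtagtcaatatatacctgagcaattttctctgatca
Slc10a2: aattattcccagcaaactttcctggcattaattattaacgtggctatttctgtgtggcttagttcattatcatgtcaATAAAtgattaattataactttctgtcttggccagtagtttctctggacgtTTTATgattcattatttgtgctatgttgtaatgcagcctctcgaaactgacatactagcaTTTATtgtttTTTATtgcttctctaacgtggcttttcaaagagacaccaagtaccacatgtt
Fabp6: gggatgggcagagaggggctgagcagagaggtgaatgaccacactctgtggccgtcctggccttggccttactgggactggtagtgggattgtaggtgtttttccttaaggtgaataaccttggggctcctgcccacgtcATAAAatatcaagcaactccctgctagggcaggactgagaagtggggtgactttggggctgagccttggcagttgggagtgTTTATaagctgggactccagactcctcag
Apoa1: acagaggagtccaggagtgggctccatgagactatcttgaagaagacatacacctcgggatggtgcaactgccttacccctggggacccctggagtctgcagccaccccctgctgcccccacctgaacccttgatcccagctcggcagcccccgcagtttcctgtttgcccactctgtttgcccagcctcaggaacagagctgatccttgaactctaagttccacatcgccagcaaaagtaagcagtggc
TTTAT was found 4 times in Sis and in Slc10a2, 2 times in Fabp6 and Lct, 1 time in Fabp2 and Apob, and in none of the windows of Apoa1, Apoa4, Mttp and Anpep, beside 37.3% of all 32851 windows of this length with at least 1 match. The motif is short and AT-rich: the windows of Sis, Slc10a2 and Fabp2 were 68.4%, 65.6% and 64.4% A or T, those of Apoa1, Mttp and Anpep 42.0%, 38.8% and 27.2%, and the median of all windows was 47.6%. It overlaps the TATA box letters searched, TATAAA (other strand TTTATA), which were found in Sis, Fabp6 and Apob and in 12.4% of all windows. GTTAAT (an HNF1 core, other strand ATTAAC) was found in Sis and Slc10a2 only among the 10, and in 6.43% of all windows. GATAA (GATA factors, other strand TTATC) was found in Slc10a2, Lct and Apob, and in 22.6% of all windows. CAAAG (an HNF4 core, other strand CTTTG) was found in 7 of the 10, all but Lct, Apoa1 and Anpep, and in 48.6% of all windows. A match describes letters in the window and says nothing of binding. The windows shown were picked with the ratios known, and a link between letters and ratios was not tested.

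Other genes of fat absorption and lipoprotein assembly had a median near that of all genes, with 4 of them low on array k. Of 22 listed genes 20 were kept, 0 were called in limma (2 higher and 1 lower at an unadjusted p under 0.05), and the median was 0.11, beside -0.020 over all genes. On array k alone the median was -0.34, and 4 of 20 genes were at least 2-fold lower: Mogat2, Creb3l3, Apobec1 and Abcg5. Mogat2, which rebuilds fat from absorbed monoglyceride, had ratios of 0.17, 0.044, 0.60 and -1.53, with a P30 brightness of 5205, 2856, 2680 and 18199. Creb3l3, a transcription factor of lipoprotein genes, had -0.18, -1.09, 0.024 and -2.02, and its P30 brightness was 6508 on k and 800 to 1481.5 on the others. Apobec1, the enzyme that edits the Apob transcript, had -0.50, -0.41, -0.32 and -1.70 by its brighter probe. Its dimmer kept probe (P30 brightness 150 to 256.5) had 0.24, -0.15, 0.065 and -0.24, so it did not repeat the value on k. Abcg5, a sterol exporter, was higher at P90 on 3 arrays (1.98, 1.28 and 1.16) and at -2.06 on k. Fabp1, the liver-type relative of Fabp2, was above 0 on all 4 arrays (2.79, 1.28, 1.07 and 0.28; mean 1.36 ± 1.05, SD, n = 4; adjusted p = 0.585, limma). The 2 brightest genes of the list were P4hb (-0.59, 0.19, 0.21 and 0.25), the partner of Mttp, and Plin2 (0.71, -0.47, 0.74 and -0.15), a lipid droplet protein.

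In bile acid handling, 6 of 7 listed genes were kept, 0 were called in limma (0 at an unadjusted p under 0.05), the median was 0.0083, and none was at least 2-fold lower on array k. Slc51a, a subunit of the basolateral bile acid exporter, was low in the same RNA as Slc10a2: its P90 brightness was 212.5 on a and 3994 to 10420 on the others, and its ratios were -2.89, -0.13, -0.36 and 0.51. The other subunit, Slc51b, had -0.21, 0.065, -0.74 and 0.68. Nr1h4, the bile acid receptor, had -1.19, 0.16, -0.76 and -0.50, and the exporter Abcc3 had -0.097, 0.37, 0.18 and -0.18.

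In brush border digestion, 13 of 18 listed genes were kept, 0 were called in limma (1 higher and 3 lower at an unadjusted p under 0.05), and the median was 0.055. Of these 13, 4 were at least 2-fold lower on array k, and 4 on array a. Enpep, a peptidase like Anpep, had ratios of -2.18, 0.85, -1.18 and -2.68. Dpp4, another peptidase, had -1.72, -0.21, -0.55 and -1.19 by its brightest probe, below 0 on all 4 arrays. Another kept probe had -1.52, -0.35, -0.42 and -0.88. Its dimmest kept probe (P30 brightness 72 to 112) had -0.050, 0.31, -0.27 and -0.14, so it was above 0 on b. Treh (trehalase) had 0.060, -0.37, -0.018 and -1.51, with a P30 brightness of 491 on k and 85.5 to 120 on the others. The 2 brightest, Cdhr5 (0.31, 0.46, 0.68 and 0.045), a link between microvilli, and Mep1a (0.74, 0.78, 0.43 and -0.31), a protease, stayed above -1 and below 1 on every array.

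In sugar, peptide and amino acid uptake, 12 of 13 genes were kept, 0 were called in limma (2 lower at an unadjusted p under 0.05), and the median was 0.068. Slc6a19, the neutral amino acid transporter of the small intestine, had a P30 brightness of 92.5, 89, 71.5 and 803.5 and ratios of 0.18, -0.035, 0.078 and -2.29. Slc15a1, the peptide transporter, had 3.21, -0.64, 1.45 and -1.71. Of the brightest, Slc46a1, the folate transporter, had 2.37, -1.52, 2.10 and -0.96, and Slc7a7 stayed between 0.070 and 0.47. Of the transcription factors that set gut regions, 12 of 14 were kept, 0 were called in limma (1 lower at an unadjusted p under 0.05) and none was at least 2-fold lower on array k. Cdx2 was at -0.89, -0.14, -0.32 and -0.24 and Hnf4a at 0.29, 0.42, 0.63 and -0.53. Gata4, known from the proximal small intestine, was near background (72 to 120.5 in all 8 RNAs) and between -0.29 and 0.093.

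**Figure D3:**
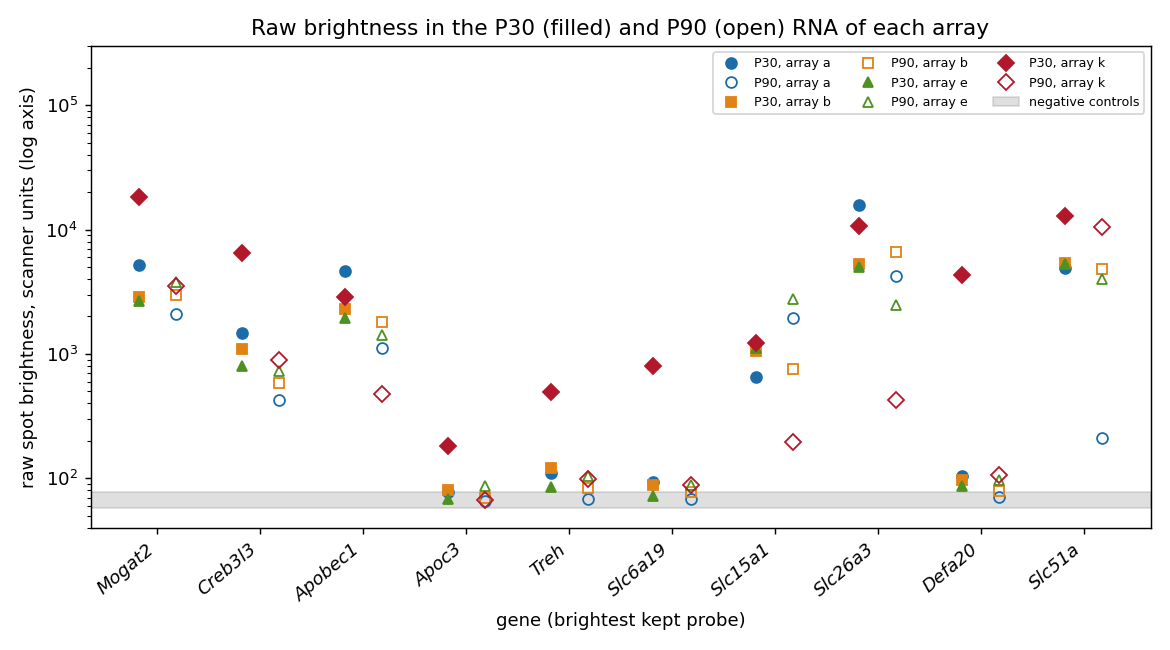
Raw spot brightness (log axis, scanner units) of 10 other genes (x axis) in the P30 (filled) and P90 (open) RNA of each array, with the negative controls in grey. Slc6a19, Treh and Defa20 lie near the controls in every RNA but the P30 RNA of array k, and Slc51a is dimmest in the P90 RNA of array a.

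Marker genes of other cells moved on the same arrays, and their part in the ratios of the 10 genes was not tested. Among Paneth cell markers, cells of the small intestinal crypt, 6 of 10 were kept and 2 were at least 2-fold lower and 2 at least 2-fold higher on array k. Defa20, a Paneth cell defensin, had a P30 brightness of 104.5, 96.5, 86 and 4351 and ratios of 0.16, -0.21, -0.058 and -4.51. A dimmer probe of Defa3 was at -4.53 on array k and its other, brighter probe at 0.048. The defensin genes are near-identical copies, so a probe may read several of them. The brightest marker, Ang4, was at 1.94, -0.87, -0.88 and 1.104 on a, b, e and k. It was 1 of the 2 markers at least 2-fold higher on array k, and Mmp7 (1.182 there) was the other. Beside Defa20, the marker at least 2-fold lower on array k was Lyz1 (-1.244). The summed normalized signal of the 6 markers was 7251 to 49390 in the P90 RNAs and 8422 to 16510 in the P30 RNAs. All 6 were well above background in all 8 RNAs. Bright markers weigh most in this sum. In the P30 RNA of array k, where it was 14770, Ang4 had a raw brightness of 6378 and the brighter Defa3 probe 4310. The sum therefore does not follow Defa20 or the dimmer Defa3 probe. The same sum over the 10 enterocyte genes was 40620, 63320, 37020 and 23580 in the P90 RNAs of a, b, e and k and 54790, 51550, 63710 and 86710 in the P30 RNAs, most of it from the Fabp2 probe that was saturated in the P30 RNA on a and k. Over the other 9 genes it was 1309, 2988, 3345 and 5497 in the P90 RNAs and 2305, 2095, 4182 and 37080 in the P30 RNAs.

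Of the 7 colonocyte markers, Car1, Aqp8 and Guca2a were saturated in every P30 RNA, so their ratios are at best upper bounds. Guca2a was saturated in every P90 RNA too and gives none. Aqp8 was not saturated in the P90 RNA of array k (19435, against 65507 to 65535 on the others), where its ratio was at most -0.97. Car1 was not saturated in the P90 RNAs of a and k (19294 and 52760), with ratios of at most -0.61 and 0.45. Car4 and Atp12a were at 0.013 and -1.53 on array k. The summed signal of the 7, which saturated spots limit, was 190500 to 287800 in the P90 RNAs and 167100 to 206700 in the P30 RNAs. Slc26a3, the chloride exchanger of surface colonocytes, had ratios of -0.52, 0.38, -0.93 and -3.78, and there it was the P90 RNA of array k that stood apart (425, against 2474 to 6600 in the other P90 RNAs). The 7 general epithelial markers were well above background in all 8 RNAs. Krt8 and Krt18 were saturated in every RNA and give no ratio. Krt19, Krt20 and Vil1 were saturated in every P30 RNA, so their ratios are at best upper bounds. In the P90 RNA of array k, Krt20 (31117, against 58230 to 65535 on the others) and Vil1 (47144) were not saturated, with ratios of at most -0.30 and 0.29. The other two, Epcam and Cdh1, were at -0.71 and -0.44 on array k. For liver, which also makes Apoa1 and Apob, 6 of 8 markers were kept, none was at least 2-fold lower on array k, and the summed signal was 2065 to 3987 at P90 and 1599 to 1956 at P30. Alb was at 2.06, -0.054, 0.34 and 0.21 and Tat at 0.71, 0.66, 0.44 and 0.17. For exocrine pancreas 4 of 8 were kept, among them Ctrb1 at -0.050 and Cpb1 at -0.30 on array k. Their summed signal was 422.9 to 532.3 at P90 and 493.6 to 563.1 at P30, part of it background. In the P90 RNAs of a, b, e and k, 1, 3, 4 and 1 of these genes were well above background. In the P30 RNAs it was 4, 4, 2 and 4.

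Connective tissue markers differed widely between the RNAs. All 6 fibroblast and matrix markers were at least 2-fold lower on arrays a, e and k and at least 2-fold higher on b, with medians of -4.23, 1.45, -2.36 and -3.22 on the 4 arrays. Their summed signal was 1950 to 29010 in the P90 RNAs and 10500 to 87080 in the P30 RNAs. The collagen genes Col3a1 and Col1a2 were at -4.41 and -3.21 on array k. The 7 adipocyte markers had medians of 0.056, 2.35, 5.46 and 0.57 on the 4 arrays, and 4 of them were above 0 on all 4, with a summed signal of 6335 to 193900 at P90 and 3729 to 12700 at P30 (on array k 5 of the 7 were above 0, and the 2 brightest, Fabp4 and Cidec, were at -0.67 and -0.62). The 6 smooth muscle markers had a median of -0.82 on k and 0.59, 0.79 and 1.08 on a, b and e, with a summed signal of 15340 to 44960 at P90 and 24850 to 25850 at P30. On k, Acta2 was at -0.33 by the probe that stands for it and at -2.71 and -1.22 by its other kept probes. Tagln was at -1.22 there by the probe that stands for it and at -1.59 by its other kept probe.

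**Figure D4:**
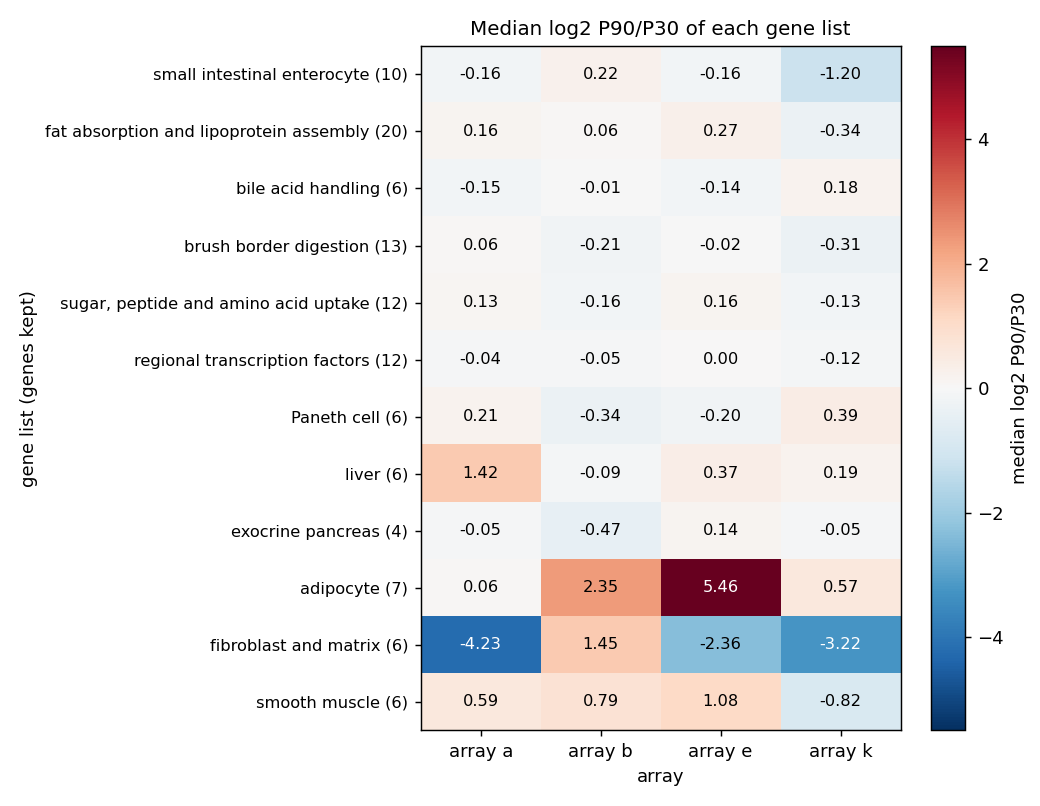
Median log2 ratio of P90 over P30 (colour and number) of the 10 enterocyte genes and of the other gene lists except the 2 with most genes saturated, colonocyte and general epithelium (rows, with the number of genes kept) on each array (columns). The enterocyte genes have their lowest median on array k (-1.20), where fat absorption has -0.34, bile acid handling 0.18 and the fibroblast markers -3.22.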

How the data were processed

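Per the file headers, the deposited intensity values are median brightness of each spot and of its local background in both channels, linear and not normalized; the design assumed mean signals, which were not used here. The deposited log10 ratio (Cy5 over Cy3) and the deposited marks for background, saturation and outliers (other) come from the same files. Agilent Feature Extraction made them (the file headers give version 10.5.1.1, the submitters' processing notes 8.5.1.1). Matched to that log ratio, the authors' value table holds log2 P90 over P30 (r = 0.887, 0.993, 0.999 and 0.882 on a, b, e and k; 80.0%, 87.0%, 86.5% and 80.5% of probes within 0.01); its medians were 0.205, -0.17, 0.049 and 0.167, and how its columns were centred stays unknown.

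Here, in limma 3.58.1 under R 4.3.3, normexp (offset 50) and loess within arrays (span 0.3, controls at weight 0) were applied to the 45018 spots per array. Outlier spots (127 to 156 per array) were left out, saturated spots kept, and all ratios expressed as log2 P90/P30. Normalized signals of single RNAs, and their sums, were taken after the mean brightness was made alike between arrays (limma's Aquantile). They hold the offset of 50 for each gene. A probe had to be well above background on at least 3 arrays at P90 or at P30 to be kept (27055 of 41174, 65.7%; 20825 genes and transcripts, each represented by its brightest kept probe). Means were tested against 0 with lmFit and eBayes, Benjamini-Hochberg adjusted over all kept probes, threshold 0.05. The fits were tested on simulated data. All arrays lay on 1 slide, so no batch could be tested. Probes were named through RefSeq accessions (GRCm38.p6; 25097 named, 16077 not); all 10 promoters matched.

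The members and lists were chosen with earlier results of these data known. Named are all 10 members with every probe and, as no list gene passed the test, the 2 brightest genes of each list. Where these were saturated, a bound or no value is given. Other list genes, and Pdzk1 and Slc37a2, were chosen after their values were seen. Some list results are not reported here. Alternatives covered background, signal, normalization, filter, saturation, outliers, probe choice, dye, the direction of array b, variance model, weights and leaving out each array.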

Additional observations from a re-analysis of the deposited data

Results flagged for a closer look

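On array k, 4 of the 15 kept probes of the 10 enterocyte genes lay further from the other 3 arrays than Dixon's critical value for 4 values allows. These were Anpep at -4.07, Apoa1 at -4.04, Fabp6 at -2.24 and Apoa4 at -1.37 on the log2 scale of P90 over P30. Of 50 other genes, each by its brightest kept probe, 6 met the same criterion. These were Defa20 (-4.51), Pdzk1, a scaffold of brush border transporters (-3.18), Slc6a19 (-2.29), Apobec1 (-1.70) and Apoc3 (-0.76) on array k, and P4hb (-0.59) on array a. The other kept probe of Apobec1 was at -0.24 on array k. With the median over the 10 genes, 66 values were tested and 10 were marked, where the criterion by its design marks about 1 in 20 by chance. The share marked among all kept probes was not computed, so the 4 of 15 has no measured background beside it. Several of the other genes were chosen for their values on array k, so their share is not a rate.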

How the results depend on the processing

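Over 24 alternatives 0 enterocyte probes were called by limma, and the lowest adjusted p of any of the 10 genes was 0.117 (Fabp2, without array b). The count over all probes was 0 except for 3 with a normexp offset of 10, 4 with plain background subtraction, 3 with the deposited log ratio and 3 with the value table. Between 921 (without array a) and 6628 (array b turned) probes had an unadjusted p under 0.05. Without array b there were 6255, beside 2177 in the report. The median over the 10 genes stayed below 0 (-0.93 to -0.035, the latter without array k; leaving out each array gave -0.88 to -0.035). The number of genes at least 2-fold lower on array k, an alternative added after seeing the data, was 6 in the report and 3 to 9 otherwise; it was 3 with a filter for both channels above background on all arrays, which left 5 of the 10 genes. Apob turned to -0.026 without normalization and to -0.21 with array b turned. Lct turned to 0.12 with median centring and to 0.067 with array b turned. Leaving out each array in turn gave -0.089 to 0.013 for Lct (the latter without array b), and, with the upper value without array k, -1.37 to 0.054 for Apoa1, -0.35 to 0.091 for Mttp and -1.50 to 0.0041 for Anpep. Without array a the mean of Sis was -0.045 and that of Slc10a2 -0.12. Signal over background limits Lct, Apoa4, Mttp, Fabp6 and, outside array k, Apoa1. Every ratio is the pair of RNAs on 1 array, so the pairing is part of the test and no further block was fitted.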

Other observations

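Outside the gene lists, the transporter Slc37a2 had log2 ratios of P90 over P30 of 3.76, -0.69, 3.09 and -3.95 on arrays a, b, e and k. The homeobox gene Hoxd13, a marker of the distal gut, had 4.63, -4.40, 1.57 and -2.41, and Hoxb13 had 1.40, -2.05, 2.16 and -0.52. The values of these 3 had been looked at before they were named.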
